A study of Mus musculus with 24 samples.

Results

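The transcripts of enzymes that dispose of nitrogen and break down amino acids in the liver were followed in mice with and without *Crif1* in hepatocytes. A list of 9 was taken by gene symbol from a table of 24532 genes, all 9 were in it, and 8 are reported here (*Nags*, *Cps1*, *Otc*, *Ass1*, *Asl*, *Tat*, *Hpd* and *Tdo2*). Counts of members below are over these 8. CRIF1 is a protein of the mitochondrial ribosome, which makes the mitochondrially encoded subunits of oxidative phosphorylation (OxPhos). The libraries came from liver, inguinal white adipose tissue (iWAT), gastrocnemius muscle (GM) and hypothalamus of C57BL/6 mice at 8 weeks of age, 3 Ctrl and 3 LKO libraries per tissue and 24 in all. Ctrl mice were *Crif1*flox/flox, and LKO mice carried the same floxed alleles with *Alb*-Cre, a Cre recombinase driven by the albumin promoter and so active in hepatocytes, while the other cells of the liver keep *Crif1*. No other allele, diet or agent differs between the groups in the labels. The labels number the libraries of a group 1 to 3 without saying which animals they came from, so that the p-values measure the spread between these libraries. Libraries are named here as Ctrl 1 or LKO 3.

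The urea cycle turns ammonia, which is toxic, into urea. N-acetylglutamate synthase (*Nags*) makes the obligatory activator of carbamoyl phosphate synthetase 1 (*Cps1*), which fixes ammonia in the mitochondrial matrix, and ornithine transcarbamylase (*Otc*) joins its product to ornithine to give citrulline. Citrulline leaves the mitochondrion, and in the cytosol argininosuccinate synthase (*Ass1*) and argininosuccinate lyase (*Asl*) carry it to arginine, from which urea and ornithine are formed. Hepatocytes are the only cells in which the whole cycle runs at a high rate. Tyrosine aminotransferase (*Tat*) and 4-hydroxyphenylpyruvate dioxygenase (*Hpd*) are the opening steps of tyrosine breakdown, and tryptophan 2,3-dioxygenase (*Tdo2*) opens the kynurenine pathway of tryptophan.

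In the deposited tables the *Ass1* locus was listed under 2 names. *Ass1* (NCBI Gene 11898) lies at chr2:31470270-31520670 on the + strand of mm10 and measured 0.782, 0.626 and 0.677 FPKM (fragments per length of transcript, scaled to depth) in Ctrl 1 to Ctrl 3 of liver and 0.896, 1.14 and 1.47 FPKM in LKO 1 to LKO 3. *Gm5424* (NCBI Gene 432466) was placed inside it, at chr2:31470308-31520629 on the same strand, and measured 1472, 1324 and 1695 FPKM in Ctrl 1 to Ctrl 3 and 2017, 1455 and 1540 FPKM in LKO 1 to LKO 3. RefSeq on GRCm38.p6 has *Gm5424* elsewhere, as a transcribed pseudogene at chr10:62071022-62072571. GENCODE M21 calls it a processed pseudogene, which is a copy of a messenger RNA put back into the genome. The *Ass1* row was 0.0399% to 0.0956% of the sum of both rows in liver, and 1.67% to 17% of it in iWAT and GM apart from 3 GM libraries at 0.506% to 0.591%. In GENCODE M21 the 1236 coding bases of *Ass1* and the *Gm5424* transcript align without a gap and differ at 6 bases, an identity of 99.51%. Of the 1137 windows of 100 bases, the length of a read, in the *Ass1* coding sequence, 622 (54.7%) hold no difference. The stretch of 150 coding bases with the most differences, bases 371 to 520 counted from the A of the start codon, is printed to show how alike the copies are, with the 3 differing bases in capitals and the GENCODE sequence of each in the sense direction.
Ass1: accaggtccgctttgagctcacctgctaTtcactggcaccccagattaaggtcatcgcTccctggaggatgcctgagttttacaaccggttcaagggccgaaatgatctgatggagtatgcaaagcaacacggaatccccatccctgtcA
Gm5424: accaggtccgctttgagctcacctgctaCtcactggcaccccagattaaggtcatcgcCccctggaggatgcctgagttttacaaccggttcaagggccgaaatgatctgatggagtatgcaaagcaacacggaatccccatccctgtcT
The alignment is of *Ass1* with the processed copy, whereas both deposited rows cover the same place on chr2. How the reads were divided between the names was not tested. The sum of both rows is therefore given below for *Ass1*, a choice made after the values were seen.

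**Figure D1:**
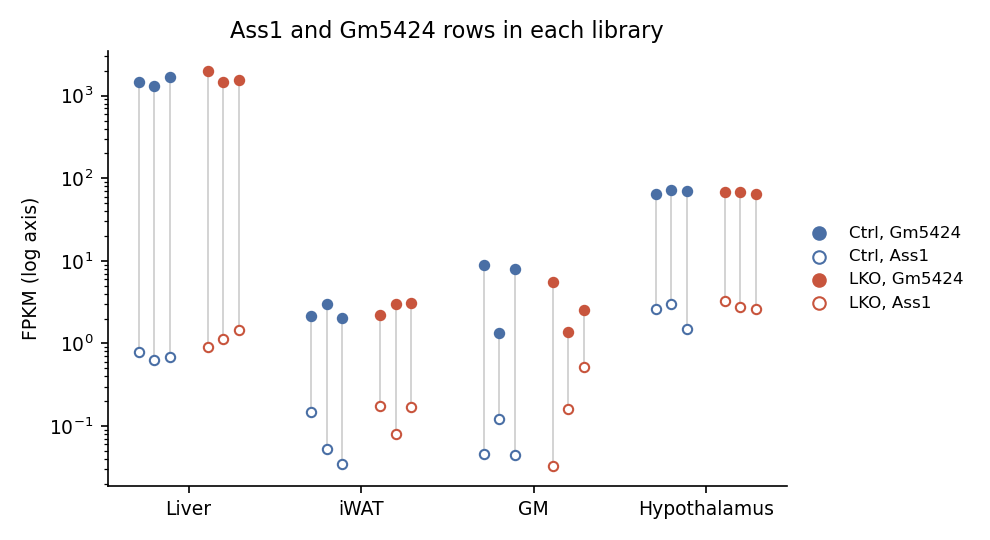
FPKM on a log axis of the *Gm5424* row (filled) and the *Ass1* row (open) in each of the 24 libraries, Ctrl in blue and LKO in red, with a grey line joining the rows of a library. In liver the *Gm5424* row lies between 1324 and 2017 FPKM and the *Ass1* row between 0.626 and 1.47 FPKM.

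RefSeq promoter entries (GRCm38.p6) matched 6 of the 8 members (*Nags*, *Otc*, *Ass1*, *Tat*, *Hpd* and *Tdo2*). The 250 bases before the start were searched on both strands for the letters of a cAMP response element (TGACGTCA), a C/EBP site (TTNNGCAA), a C/EBP-ATF element (TGATGNAAT), a FOXA site (TGTTTAC), an HNF4 site (CAAAGTCCA) and a TATA box (TATAAA), which were found in 1.55%, 9.56%, 0.816%, 3.17%, 0.384% and 12.4% of 32851 promoters in the same window. Among the 6 members the only match was a TATAAA in *Tdo2*, 229 bases before the start on the gene's strand. The windows of *Hpd* and *Tdo2* are printed because both transcripts fell in LKO liver, with the match in capitals. That of *Hpd* is chr5:123182724-123182973, read on the - strand, and that of *Tdo2* is chr3:81975729-81975978, also on the - strand.
Hpd: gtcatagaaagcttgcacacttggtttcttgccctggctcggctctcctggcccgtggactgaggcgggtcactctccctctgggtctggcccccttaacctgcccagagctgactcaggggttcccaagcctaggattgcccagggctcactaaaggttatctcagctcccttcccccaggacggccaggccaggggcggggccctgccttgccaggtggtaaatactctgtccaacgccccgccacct
Tdo2: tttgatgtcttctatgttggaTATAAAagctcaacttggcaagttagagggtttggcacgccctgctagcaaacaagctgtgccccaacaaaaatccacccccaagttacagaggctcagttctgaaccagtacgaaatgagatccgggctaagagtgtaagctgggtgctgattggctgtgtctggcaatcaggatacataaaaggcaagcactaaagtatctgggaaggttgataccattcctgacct
The window of *Hpd* is 62.8% G or C and that of *Tdo2* 46.4%, and across the 6 windows the share ran from 43.6% in *Otc* to 75.6% in *Ass1*.

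The depth of the liver libraries, as far as the ratio of coverage to FPKM shows it, was 4.7 to 8.09 gigabases. *Crif1*, listed as *Gadd45gip1*, measured 14.6, 12.5 and 13.6 FPKM in Ctrl 1 to Ctrl 3 and 5.4, 2.0 and 2.51 FPKM in LKO 1 to LKO 3, and its difference was -1.84 on the log2 scale (limma adjusted p = 0.00357). It overlaps another gene on the other strand, and the library kit does not mark strand. Taking all 10956 genes tested in liver, the median difference between the genotypes was 0.33 (log2) as deposited, so the members and the counts are also given after median-ratio scaling, in which each library is divided by its median ratio to the geometric mean of the livers and that median becomes -0.04. The scaling factors were 0.852 to 0.878 for the Ctrl livers and 1.01, 1.18 and 1.34 for LKO 1, LKO 2 and LKO 3. The defining transcripts of hepatocytes were present in every liver (7 of 8 listed symbols found, none at 0), with a summed level of 72700 to 75900 FPKM in Ctrl and 55450 to 83570 FPKM in LKO livers. Marker sums of other cells were higher in the LKO livers, from 97.7 to 101 FPKM in Ctrl and 216 to 341 FPKM in LKO for 6 Kupffer cell markers, from 67.6 to 75.2 and 181 to 201 FPKM for 6 of stellate cells and fibroblasts, from 1.78 to 2.09 and 10.2 to 13.2 FPKM for 6 of monocytes and neutrophils, from 30.7 to 31.8 and 41.6 to 88.9 FPKM for 5 of cholangiocytes, and from 71.9 to 73.0 and 80.1 to 131 FPKM for 5 of endothelial cells, whereas the 6 lymphocyte markers overlapped (1.64 to 2.82 and 1.37 to 2.43 FPKM). After median-ratio scaling the endothelial sums overlapped (82.6 to 85.7 FPKM in Ctrl and 78.9 to 98.0 FPKM in LKO), while those of Kupffer cells, stellate cells, monocytes and neutrophils, and cholangiocytes still did not. None of these lists had a marker at 0 in all LKO livers, and 1 monocyte and neutrophil marker was at 0 in all Ctrl livers. By flow cytometry the authors found fewer resident Kupffer cells and more infiltrated monocytes in LKO livers, so the Kupffer marker sum is not a count of cells. In bulk tissue, fewer cells of a type and less RNA per cell cannot be told apart, and the part of these markers in the results below was not tested.

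In LKO liver, 4 of the 7 members that could be tested fell, and 0 rose. These were *Otc*, *Asl*, *Hpd* and *Tdo2*, whereas *Nags*, *Cps1* and *Tat* did not pass the test (limma on log2(FPKM + 1), adjusted p under 0.05 over all tested genes). *Ass1* as listed was too low to be tested, and the sum of both rows did not pass. Among all tested liver genes, 5.49% fell and 38.3% rose by the same rule. After median-ratio scaling 5 of the 7 fell, *Tat* in addition, and 0 rose, while 17.9% of all genes fell and 15.2% rose. The median log2 fold change of the 7 members was -0.50 on the deposited scale and -0.94 after scaling, against 0.33 and -0.04 for all tested genes. The LKO livers lay wholly below the Ctrl livers for 4 of the 7 members on the deposited scale (*Otc*, *Asl*, *Hpd* and *Tdo2*), where 8.1% of all tested genes did so, and for *Tat* as well after scaling, where 29.6% did. The number of calls moved with single libraries. On the deposited scale 1 member (*Asl*) passed without Ctrl 1 or without Ctrl 2, 0 passed without Ctrl 3 or without LKO 2 (4 of the 7 in each case at an unadjusted p under 0.05 in limma), 3 passed without LKO 3 (*Asl*, *Hpd* and *Tdo2*), and 5 passed without LKO 1 (these with *Otc* and *Nags*). The share of all tested genes that fell was 2.8%, 2.51% and 2.46% in the fits without Ctrl 1, Ctrl 2 and Ctrl 3, and 8.55%, 2.6% and 4.1% in those without LKO 1, LKO 2 and LKO 3. After scaling only *Asl* passed without Ctrl 1, Ctrl 2, Ctrl 3 or LKO 2, 4 passed without LKO 3, and all 7 passed without LKO 1, where 11.5% and 29% of all genes fell, against 6.56% to 7.79% in the other fits.

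**Figure D2:**
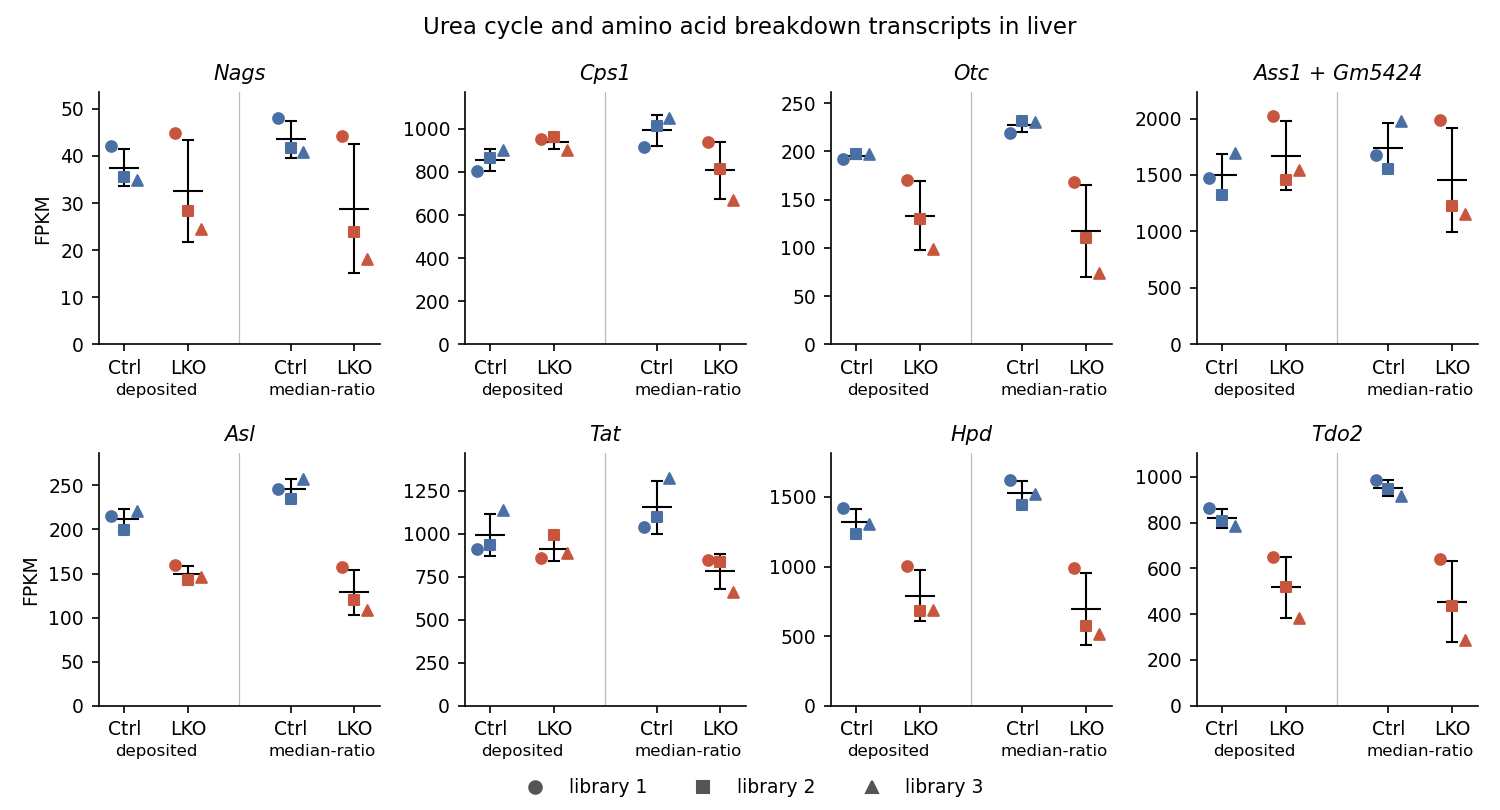
FPKM of each enzyme transcript in the 3 Ctrl (blue) and 3 LKO (red) livers, as deposited (left of each panel) and after median-ratio scaling (right), with one symbol per library number. Bars are the mean and SD of 3 libraries, and *Otc*, *Asl*, *Hpd* and *Tdo2* have all LKO points below all Ctrl points on both scales.

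Of the mitochondrial steps, *Otc* passed the test and *Cps1* and *Nags* did not. *Otc* (NCBI Gene 18416, chrX:10252305-10321024) measured 192, 197 and 197 FPKM in Ctrl 1 to Ctrl 3 and 171, 130 and 99.0 FPKM in LKO 1 to LKO 3. All LKO livers lay below the Ctrl livers, which themselves differed by little. *Otc* fell to 68.2% of Ctrl, a log2 fold change of -0.58 ± 0.19 (standard error, limma adjusted p = 0.0426), and to 51.7% after scaling (-1.02, limma adjusted p = 0.0324). It did not pass in the deposited TPM (limma adjusted p = 0.0647), with no filter on low values (limma adjusted p = 0.0671), under quantile normalization (limma adjusted p = 0.0558) or with ordinary variances (adjusted p = 0.117, limma fit). *Cps1* (NCBI Gene 227231, chr1:67123027-67231267), the entry step, measured 803, 864 and 901 FPKM in Ctrl 1 to Ctrl 3 and 951, 962 and 900 FPKM in LKO 1 to LKO 3. Its groups overlapped, and the sign of its difference turned with the scale, 0.13 ± 0.12 as deposited (limma adjusted p = 0.367) and -0.31 ± 0.17 after scaling (limma adjusted p = 0.19). With quantile normalization it passed the test in the upward direction, at 0.52 (limma adjusted p = 0.0129). *Nags* (NCBI Gene 217214, chr11:102145513-102149528), far lower than the other enzymes, measured 42.1, 35.5 and 35.0 FPKM in Ctrl 1 to Ctrl 3 and 44.9, 28.4 and 24.4 FPKM in LKO 1 to LKO 3. LKO 1 was above every Ctrl liver and LKO 2 and LKO 3 below every one, and the difference of -0.24 ± 0.22 did not pass (limma adjusted p = 0.375), nor did -0.67 ± 0.3 after scaling (limma adjusted p = 0.122). Without LKO 1 *Nags* passed on both scales, at -0.49 (limma adjusted p = 0.00721) and -1.02 (limma adjusted p = 0.00159).

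Of the cytosolic steps, *Asl* (NCBI Gene 109900, chr5:130011258-130024381, - strand), whose enzyme splits argininosuccinate into arginine and fumarate, measured 216, 200 and 220 FPKM in Ctrl 1 to Ctrl 3 and 160, 142 and 146 FPKM in LKO 1 to LKO 3. Every LKO liver was below every Ctrl liver. The LKO livers lay close to each other as deposited but were spread from 109 to 158 FPKM after scaling. *Asl* fell to 70.5% of Ctrl, by 0.50 ± 0.10 on the log2 scale (-0.50, limma adjusted p = 0.0107), and after scaling to 52.5% (-0.94, limma adjusted p = 0.00709). *Ass1* summed with *Gm5424* measured 1473, 1325 and 1696 FPKM in Ctrl 1 to Ctrl 3 and 2018, 1456 and 1542 FPKM in LKO 1 to LKO 3, and its Ctrl mean of 1498 FPKM was above that of every other member. Its groups overlapped on both scales, with a difference of 0.15 ± 0.18 as deposited (limma adjusted p = 0.494) and -0.29 ± 0.25 after scaling (limma adjusted p = 0.39).

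**Figure D3:**
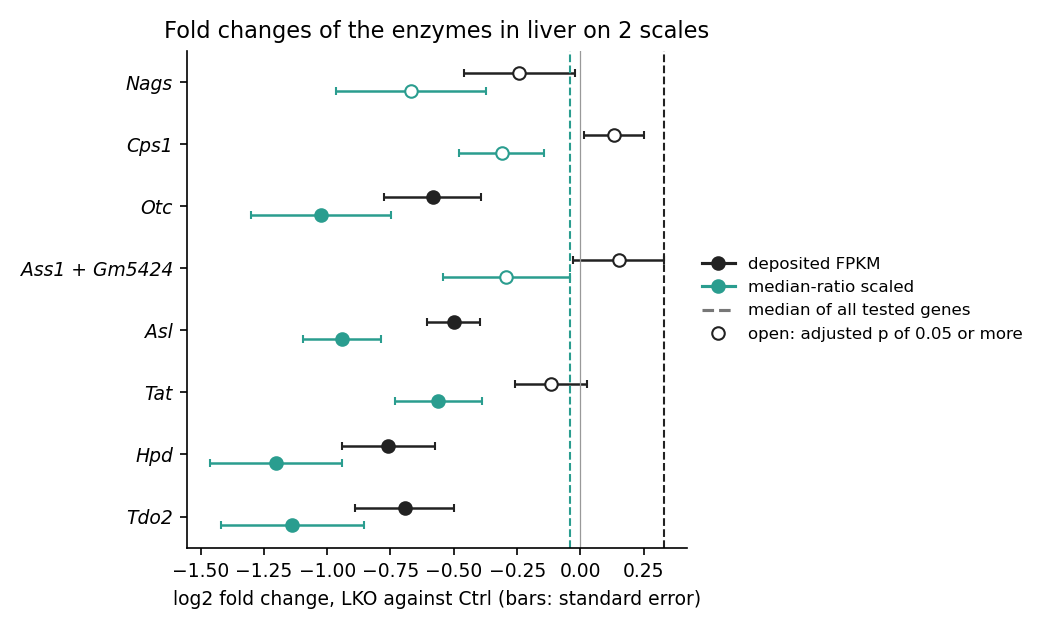
Log2 fold change (LKO against Ctrl) with its standard error for each enzyme in liver, as deposited (black) and after median-ratio scaling (green), filled where the adjusted p was under 0.05. Dashed lines are the medians of all 10956 tested genes (0.33 and -0.04), and the members other than *Cps1* and *Ass1* with *Gm5424* lie below 0 on both scales.

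Of the amino acid breakdown enzymes, *Hpd* (NCBI Gene 15445, chr5:123171807-123182686, - strand), which forms homogentisate from the product of *Tat*, measured 1422, 1230 and 1305 FPKM in Ctrl 1 to Ctrl 3 and 1004, 682 and 686 FPKM in LKO 1 to LKO 3. No LKO liver reached the lowest Ctrl liver. *Hpd* fell to 60% of Ctrl (log2 fold change -0.76 ± 0.18, limma adjusted p = 0.0175) and to 45.3% after scaling (-1.20, limma adjusted p = 0.0167). It did not pass under quantile normalization (-0.39, limma adjusted p = 0.145), with all 24 libraries in 1 fit (limma adjusted p = 0.169) or with ordinary variances (adjusted p = 0.0633, limma fit). *Tdo2* (NCBI Gene 56720, chr3:81958414-81975728, - strand), the rate-limiting enzyme of hepatic tryptophan breakdown, measured 865, 808 and 786 FPKM in Ctrl 1 to Ctrl 3 and 652, 517 and 384 FPKM in LKO 1 to LKO 3. The groups did not overlap, and LKO 3 was the lowest. *Tdo2* fell to 63.1% of Ctrl (-0.69 ± 0.2, limma adjusted p = 0.0284) and to 47.9% after scaling (-1.14, limma adjusted p = 0.0253). It was lost in the same alternatives (adjusted p = 0.17, 0.107 and 0.0888 in limma) and with no filter on low values (limma adjusted p = 0.0505). *Tat* (NCBI Gene 234724, chr8:109990436-109999804), the step just before *Hpd*, measured 912, 934 and 1136 FPKM in Ctrl 1 to Ctrl 3 and 858, 993 and 888 FPKM in LKO 1 to LKO 3. Here the groups overlapped, at -0.12 ± 0.14 (limma adjusted p = 0.501). *Tat* passed after median-ratio scaling (-0.56 ± 0.17, limma adjusted p = 0.0462), did not pass under upper-quartile scaling (limma adjusted p = 0.0595) or with factors from genes with a mean of at least 10 FPKM (limma adjusted p = 0.0838), and its difference was 0.01 in the deposited TPM and 0.25 under quantile normalization.

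By mean FPKM in Ctrl liver, a level per length, *Hpd* ranked 55, *Tat* 67, *Cps1* 79, *Tdo2* 82, *Asl* 333, *Otc* 362, *Nags* 1501 and the *Ass1* row 10908. By log2 fold change on the deposited scale *Hpd* stood at percentile 2.67 of all tested genes counted from the most lowered, *Tdo2* at 3.14, *Otc* at 3.98, *Asl* at 4.8, *Nags* at 9.05, *Tat* at 13 and *Cps1* at 28.5. As deposited, the LKO livers differed more among themselves than the Ctrl livers did for *Otc* (SD 36.0 against 3.01 FPKM), *Tdo2* (134 against 41.2 FPKM), *Hpd* (185 against 96.7 FPKM) and *Nags* (10.9 against 3.98 FPKM), but not for *Asl* (9.33 against 10.8 FPKM), *Cps1* (33.5 against 49.6 FPKM) or *Tat* (71.1 against 124 FPKM). After scaling the LKO SD was the larger for *Asl* (25.5 against 11.5 FPKM) and *Cps1* (133 against 71.2 FPKM) as well, and *Tat* remained the exception (103 against 152.5 FPKM). On that scale LKO 1 had the highest and LKO 3 the lowest LKO value for all 7 tested members, and the factor each was divided by was smallest in LKO 1 and largest in LKO 3. As deposited LKO 1 was the highest for 5 and LKO 3 the lowest for 4 of the 7. The deposited hepatocyte marker sum was 83570, 69080 and 55450 FPKM in LKO 1, LKO 2 and LKO 3, the same order. Of the LKO livers, LKO 1 kept the most *Crif1* (5.4 FPKM) and LKO 2 the least (2.0 FPKM). The deposited marker sums of other cells in LKO 1, LKO 2 and LKO 3 were 216, 248 and 341 FPKM for Kupffer cells, 181, 185 and 201 FPKM for stellate cells, 80.1, 108 and 131 FPKM for endothelial cells, 41.6, 88.9 and 76.4 FPKM for cholangiocytes, 13.2, 10.2 and 11.9 FPKM for monocytes and neutrophils, and 2.43, 1.37 and 2.07 FPKM for lymphocytes. After scaling the order turned for stellate cells (178, 156 and 150.1 FPKM), and LKO 2 was the lowest for Kupffer cells (213, 209.5 and 255 FPKM). The part of these values in the spread was not tested.

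Ratios of members within a library do not depend on the scaling. The ratio of *Otc* to *Cps1*, successive steps in the matrix, was 0.239, 0.228 and 0.219 in Ctrl 1 to Ctrl 3 and 0.18, 0.135 and 0.11 in LKO 1 to LKO 3. All LKO livers were lower, by a mean log2 difference of -0.72 (exact two-sided permutation p = 0.1, the smallest that 3 against 3 libraries can give, and 0.167 adjusted over 5 ratios). The ratio of *Ass1* with *Gm5424* to *Otc* was higher in all LKO livers (7.67, 6.71 and 8.6 against 11.8, 11.2 and 15.6, a log2 difference of 0.74). The ratio of *Asl* to *Ass1* with *Gm5424* was lower in all of them (0.146, 0.151 and 0.13 against 0.0793, 0.0977 and 0.0948, a log2 difference of -0.66). For both the exact permutation p was 0.1 and 0.167 after adjustment. *Nags* to *Cps1* and *Hpd* to *Tat* overlapped between the groups, with log2 differences of -0.38 and -0.64 and exact permutation p-values of 0.3 and 0.2 (0.3 and 0.25 after adjustment).

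Around the cycle stand carriers and enzymes that feed it with bicarbonate, ammonia, aspartate and ornithine. Of 16 such genes 15 were tested, and 1 rose and 2 fell as deposited (1 and 5 after scaling). *Car5a*, the mitochondrial carbonic anhydrase that gives *Cps1* its bicarbonate, measured 58.8, 49.7 and 56.6 FPKM in Ctrl 1 to Ctrl 3 and 27.1, 21.0 and 15.9 FPKM in LKO 1 to LKO 3. It fell by 1.35 on the log2 scale (-1.35 ± 0.19, limma adjusted p = 0.00286; -1.78 after scaling), more than any of the 7 tested members. *Aqp9*, a channel for glycerol and urea, fell too (134, 109 and 117 FPKM against 86.7, 90.9 and 87.6 FPKM, limma adjusted p = 0.0212). *Slc25a22*, a mitochondrial glutamate carrier, rose from 31.4, 27.9 and 88.6 FPKM to 123, 164 and 186 FPKM (log2 fold change 1.84 ± 0.41, limma adjusted p = 0.0144; 1.40 after scaling, limma adjusted p = 0.0424). Its Ctrl 3 value stood well above the other Ctrl livers. *Glul*, the glutamine synthetase of the hepatocytes around the central vein, which take up ammonia that escapes the cycle, measured 306, 296 and 327 FPKM in Ctrl 1 to Ctrl 3 and 67.0, 305 and 317 FPKM in LKO 1 to LKO 3. LKO 1 stood far below the other 5 livers, and the difference did not pass (limma adjusted p = 0.297, and 0.111 after scaling). *Oat*, which turns ornithine towards glutamate, was at 212, 212 and 246 against 191, 215 and 253 FPKM and passed only after scaling (-0.47, limma adjusted p = 0.0204).

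The other genes of amino acid breakdown were read by pathway, beside the partners of the cycle above and 16 regulators. Of the enzymes and carriers alone 93 were tested, of which 5 rose and 23 fell as deposited and 2 rose and 48 fell after scaling. Counting every gene of the 11 lists once, 109 of 111 were tested, of which 6 rose and 26 fell as deposited and 3 rose and 54 fell after scaling, with medians of -0.16 and -0.59. All 26 that fell as deposited also fell after scaling, and 3 of the 6 that rose also rose. Over all tested genes, 38.3% rose and 5.49% fell as deposited and 15.2% rose and 17.9% fell after scaling, which is also the background of each list. Without LKO 2 the deposited counts were 1 and 10, without Ctrl 1 they were 2 and 13, without Ctrl 2 they were 1 and 14, without Ctrl 3 they were 2 and 11, without LKO 3 they were 4 and 16, and without LKO 1 they were 15 and 46. After scaling they were 0 and 23, 1 and 25, and 1 and 23 without Ctrl 1, Ctrl 2 and Ctrl 3, then 4 and 87, 0 and 22, and 1 and 37 without LKO 1, LKO 2 and LKO 3. Of all genes, 10.9% to 58.9% rose and 2.46% to 8.55% fell in these fits as deposited, and 5.52% to 20.5% rose and 6.56% to 29% fell after scaling, the highest share each time without LKO 1. A fold change of at least 1.5 in addition left 20 of the 32 deposited calls.

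**Figure D4:**
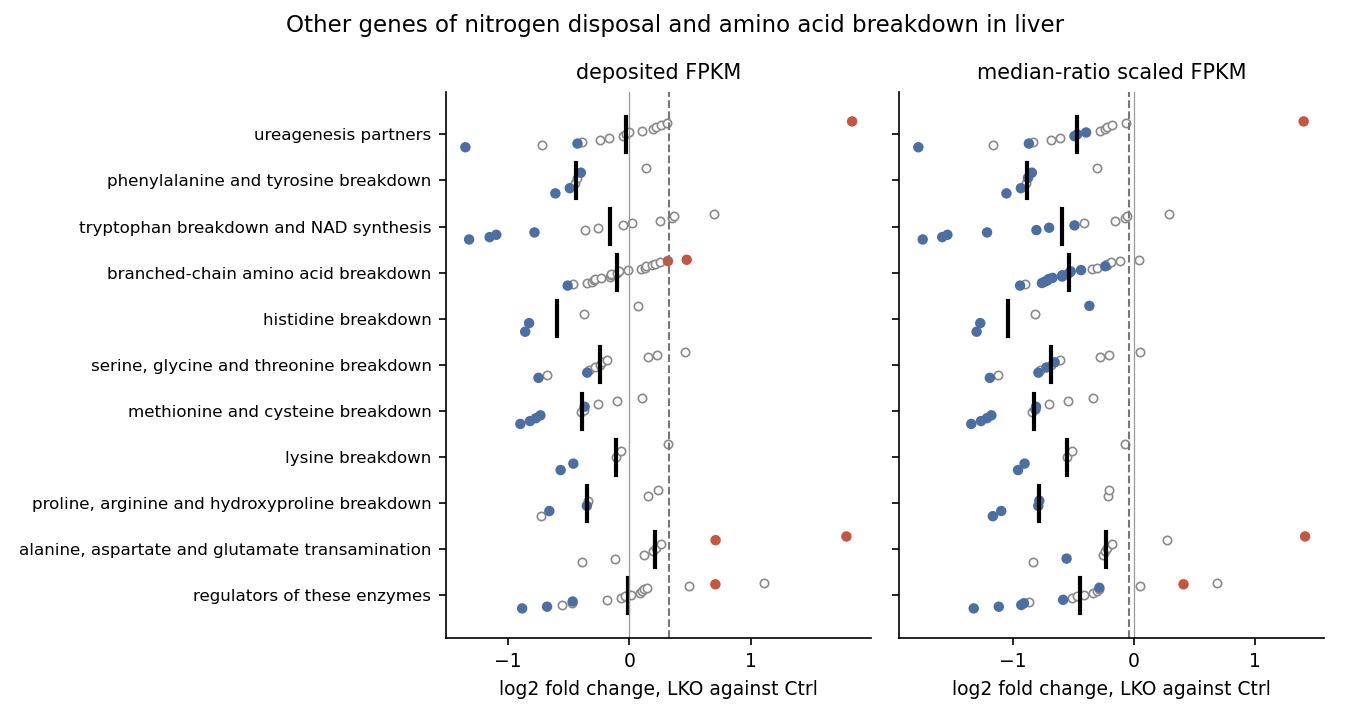
Log2 fold change (LKO against Ctrl) of each tested gene in 11 lists, as deposited (left) and after median-ratio scaling (right), filled in blue (fell) or red (rose) where the adjusted p was under 0.05. Black bars are list medians and the dashed line is the median of all tested genes (0.33 and -0.04), to the left of which every list median lies.

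Downstream of *Tat* and *Hpd*, 3 of 6 genes of phenylalanine and tyrosine breakdown fell as deposited (4 after scaling) and 0 rose. They were *Gstz1*, the maleylacetoacetate isomerase (397, 356 and 364 FPKM against 319, 228 and 197 FPKM, log2 fold change -0.61, limma adjusted p = 0.0329), *Fah*, the last enzyme of the pathway (-0.40, limma adjusted p = 0.0361), and *Qdpr*, which regenerates tetrahydrobiopterin (-0.49, limma adjusted p = 0.0473). The tryptophan list held the largest falls of these lists, next to *Car5a*. There, 4 of 12 genes fell as deposited and 7 after scaling, and 0 rose on either scale. *Ido2*, a second enzyme that opens the indole ring of tryptophan, fell from 40.1, 37.3 and 42.1 FPKM to 19.3, 15.7 and 11.9 FPKM (-1.32 ± 0.17, limma adjusted p = 0.00231). *Haao*, on the way to quinolinate and NAD, fell from 394, 372 and 389 FPKM to 253, 176 and 129 FPKM (-1.10 ± 0.23, limma adjusted p = 0.0109). *Aadat*, which turns kynurenine into kynurenate, fell by 1.15 (-1.15, limma adjusted p = 0.00172), and *Afmid*, the formamidase just after *Tdo2*, fell by 0.78 (-0.78, limma adjusted p = 0.0172). All 4, named because they passed the test, had every LKO liver below every Ctrl liver as deposited, where 8.1% of all tested genes did so.

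In methionine and cysteine breakdown 5 of 10 genes fell as deposited and 6 after scaling, and 0 rose. Examples were *Ahcy*, which splits S-adenosylhomocysteine (666, 718 and 749 FPKM against 453, 407 and 421 FPKM, -0.73, limma adjusted p = 0.0043), *Gnmt*, a glycine methyltransferase that uses up S-adenosylmethionine (-0.82, limma adjusted p = 0.0216), *Cdo1*, which oxidises cysteine (-0.77, limma adjusted p = 0.00787), and *Bhmt*, which remethylates homocysteine (-0.90, limma adjusted p = 0.0269, Ctrl 2 at 1311 against 2202 and 2252 FPKM in the other Ctrl livers). Of 4 histidine genes 2 fell as deposited and 3 after scaling, among them *Hal*, the opening step (-0.86, limma adjusted p = 0.0275), and *Ftcd*, which passes the formimino group to folate (-0.83, limma adjusted p = 0.0098). Of 11 tested genes of serine, glycine and threonine breakdown 2 fell as deposited, *Pipox* (-0.75, limma adjusted p = 0.0109) and *Dmgdh* (-0.35, limma adjusted p = 0.0254), and 4 after scaling. The lysine list had 2 of 5 lower on both scales, *Dhtkd1* (-0.57) and *Gcdh* (-0.46), and the proline, arginine and hydroxyproline list had 2 of 6 lower as deposited, *Hoga1* (-0.66) and *Prodh2* (-0.35), and 4 after scaling.

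The branched-chain list depended on the scale. As deposited 2 of its 21 genes rose, *Bckdhb* (0.47, limma adjusted p = 0.0157) and *Dld* (0.32, limma adjusted p = 0.0394), both parts of the branched-chain keto acid dehydrogenase, and 1 fell, *Acadsb* (-0.51, limma adjusted p = 0.0155). After scaling 0 rose and 12 fell, and *Bckdhb* and *Dld* were at 0.04 and -0.12 (limma adjusted p = 0.728 and 0.389). Among 8 genes of alanine, aspartate and glutamate metabolism 2 rose as deposited, the mitochondrial alanine aminotransferase *Gpt2* (57.5, 56.7 and 67.9 FPKM against 70.7, 114 and 122 FPKM, 0.71, limma adjusted p = 0.0324; not past the test after scaling, limma adjusted p = 0.199) and the asparaginase *Asrgl1* (3.11, 2.76 and 2.87 FPKM against 5.04, 14.2 and 25.9 FPKM, 1.79, limma adjusted p = 0.0236; 1.41 after scaling, limma adjusted p = 0.0385). After scaling 1 of these 8 rose and 1 fell.

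Among 16 regulators known to act on these enzymes, 1 rose and 3 fell as deposited, and 1 rose and 6 fell after scaling. *Cebpa*, a transcription factor of hepatocyte metabolism, fell from 124, 137 and 112 FPKM to 78.9, 70.6 and 53.0 FPKM (-0.89 ± 0.16, limma adjusted p = 0.00737). The glucagon receptor gene *Gcgr* fell as well (157, 161 and 154 FPKM against 120, 116 and 106 FPKM, limma adjusted p = 0.0113), as did *Klf15*, a factor that acts on amino acid breakdown in fasting (81.6, 77.9 and 87.0 FPKM against 59.9, 49.0 and 44.8 FPKM, limma adjusted p = 0.00822). *Ppargc1a*, a coactivator of mitochondrial and fasting genes, rose from 1.39, 1.63 and 1.44 FPKM to 2.89, 3.21 and 3.09 FPKM (0.71, limma adjusted p = 0.0034; 0.41 after scaling, limma adjusted p = 0.02). *Hnf4a*, which defines hepatocytes, did not pass on either scale, at -0.07 as deposited (limma adjusted p = 0.711) and -0.51 after scaling (limma adjusted p = 0.0984), where the LKO livers lay below the Ctrl livers.

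Outside the liver most members were near the lower end of the measurement. *Asl* passed the filter on low values in every tissue. It was at 14.7, 14.9 and 15.1 FPKM in Ctrl iWAT and at 12.7, 13.4 and 13.2 FPKM in LKO iWAT, at 3.35 to 5.07 FPKM in GM and at 15.7 to 20.5 FPKM in hypothalamus. In iWAT all LKO libraries were below all Ctrl libraries, by a log2 difference of -0.17, which did not pass (limma adjusted p = 0.277). *Ass1* with *Gm5424* was at 66.7 to 74.5 FPKM in hypothalamus, 2.06 to 3.28 FPKM in iWAT and 1.46 to 8.95 FPKM in GM. In iWAT *Tdo2* (1.23 to 3.35 FPKM) and *Hpd* (0.976 to 2.47 FPKM) were at a like level, and in GM *Hpd* (0.129 to 6.39 FPKM) and *Tat* (0.204 to 4.75 FPKM) overlapped it. From the highest tissue to the lowest, *Asl* ran liver, hypothalamus, iWAT and GM, where only hypothalamus and iWAT came near each other (at least 15.7 and at most 15.1 FPKM), and the *Ass1* locus ran liver, hypothalamus, then GM and iWAT, which overlapped. *Nags* was listed at 0 in all 6 iWAT libraries and reached at most 0.112 FPKM in GM and 0.327 FPKM in hypothalamus. *Otc* reached at most 0.053 FPKM in iWAT, 0.861 FPKM in GM and 0.0868 FPKM in hypothalamus.

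Of the members, 3 could be tested in iWAT, 4 in GM and 2 in hypothalamus, and 0 passed after adjustment. At an unadjusted p under 0.05 in limma the counts were 1 (*Asl*), 0 and 0. Among all genes tested there, 0% (0 of 12288), 0% (0 of 10877) and 0.0217% (3 of 13828) passed, and 1842, 743 and 515 had an unadjusted p under 0.05. In GM the levels of several members followed the library. *Cps1* was at 4.21, 0.259 and 2.76 FPKM in Ctrl GM and at 1.01, 0.174 and 0.48 FPKM in LKO GM, and *Hpd* at 6.39, 0.449 and 5.0 against 1.61, 0.129 and 0.692 FPKM. Ctrl 1 and Ctrl 3 were the highest for both. The same libraries held the most hepatocyte transcripts, with marker sums of 319, 24.4 and 243 FPKM in Ctrl GM and 116, 15.7 and 47.6 FPKM in LKO GM, and with albumin (*Alb*) at 168, 13.7 and 125 against 65.5, 8.32 and 22.8 FPKM. In hypothalamus Ctrl 3 stood apart in the same way, with a hepatocyte marker sum of 47.6 FPKM against 6.61 to 11.3 FPKM in the other 5 libraries, and held the highest *Cps1* (0.346 FPKM) and *Hpd* (1.27 FPKM). In iWAT the hepatocyte marker sum was higher in every LKO library (26.9, 15.4 and 15.6 FPKM in Ctrl and 37.7, 59.5 and 60.1 FPKM in LKO), and *Cps1* (0.239 and 0.144 FPKM) and *Tat* (0.16 and 0.123 FPKM) were above 0.1 FPKM in LKO 2 and LKO 3 alone. The part of these hepatocyte transcripts in the levels of the members was not tested. All 7 of the hepatocyte markers found were above 0 in at least 1 library of each of these groups.

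**Figure D5:**
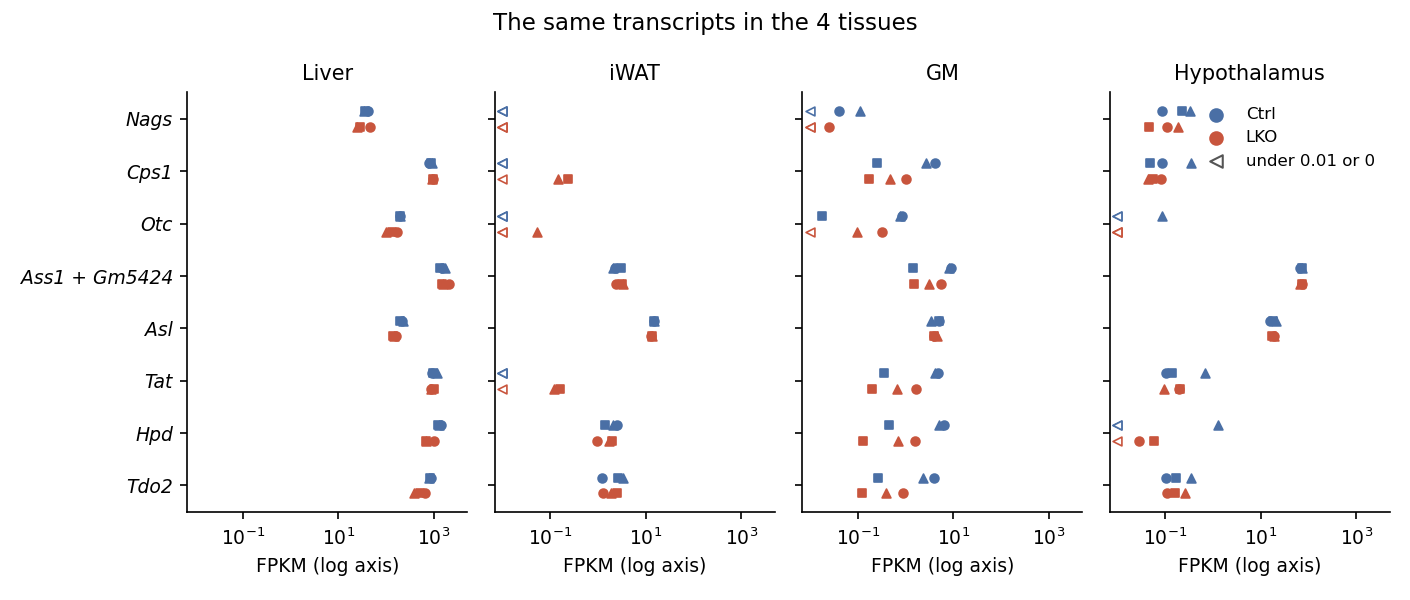
FPKM on a log axis of each enzyme in the 4 tissues, 3 Ctrl (blue) and 3 LKO (red) libraries each with one symbol per library number. Open triangles at the left edge are libraries under 0.01 FPKM or at 0. In GM the Ctrl 1 and Ctrl 3 points of *Cps1*, *Tat*, *Hpd* and *Tdo2* lie to the right of the other GM points.

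Whether the difference between genotypes varied with the tissue was tested in 1 limma fit of all 24 libraries. Of the 8 members only *Asl* passed the filter on low values in all 4 tissues. *Nags* and *Otc* passed it in liver alone and *Ass1* as listed in hypothalamus alone, so that for them the fit holds little beyond 1 tissue. Their differences elsewhere rest on low values. *Otc* was at -0.40 in GM against -0.58 in liver, and the *Ass1* row at 0.35 in liver against 0.24 in hypothalamus. By the F test over the tissue interactions *Asl* did not pass, at a limma adjusted p of 0.0526, and neither did any other of the 8, while 33.5% of the 15794 genes tested did. With median-ratio scaling within each tissue *Asl* passed (limma adjusted p = 0.00185), where 22.6% of all genes did. With that scaling its log2 difference was -0.94 for liver against -0.18, -0.05 and 0.02 for iWAT, GM and hypothalamus.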

How the data were processed

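RNA-seq libraries of liver, iWAT, GM and hypothalamus from Ctrl and LKO mice, 3 per group, were grouped by genotype and tissue from the labels. The authors deposited FPKM per gene in 1 joined table, and per-library tables of coverage, FPKM and TPM. The deposited coverage is not scaled for depth, the deposited FPKM are scaled by the authors to the fragments of a library, and the deposited TPM to a fixed sum. The submitters' processing notes name mm10, FastQC 0.11.5, Trimmomatic 0.32, HISAT2 2.0.5, Bowtie2 2.2.6, STAR 2.5.2b and StringTie 1.3.3b, without roles. Counts were not used here, so counting error is not given. Depth, read from the ratio of coverage to FPKM, was 4.45 to 8.09 gigabases.

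Each tissue was fitted with limma 3.58.1 in R 4.3.3 (trended eBayes, two-sided) on log2(FPKM + 1) for genes that reached 1 FPKM in 3 or more libraries, with Benjamini-Hochberg adjustment over all of them. A gene rose, fell or passed at an adjusted p under 0.05. Fold changes on this scale understate changes of low genes. The same fit was run after dividing the libraries by median-ratio size factors. The code of the fit was run on simulated data with known changes, as a check of the code alone. Differences between tissues were tested with an F test over 3 interaction contrasts, and ratios with exact permutation tests. Promoters and transcripts came from RefSeq (GRCm38.p6) and GENCODE M21, the same assembly as mm10, and alignment used Biopython 1.88 (Python 3.11.15).

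The members, lists and tests were chosen with earlier results of these data known. All members reported are named, and in each list at most 4 of the genes that passed, those with the largest change as deposited, plus *Glul* and *Oat*. Items not reported here were left out of the counts of members and lists and of the ratios, and a planned search for genes of like pattern is not given for that reason. *Hnf4a* was added after its value was seen. The closing section gives the effect of other pseudocounts, filters, scalings, variances, fits and of leaving out each library.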

Additional observations from a re-analysis of the deposited data

How the results depend on the processing

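In place of the 4 members called in liver on the deposited scale, 2 were called with a fold change of at least 1.5 in addition, 2 with no filter on low values (*Asl* and *Hpd*), 2 under quantile normalization (*Asl* lower and *Cps1* higher), 2 with all 24 libraries in 1 fit (*Asl* and *Otc*) and 1 with ordinary variances (*Asl*), where 3.5%, 3.41%, 16.1%, 5% and 3.1% of all genes fell (15% rose under quantile normalization), and leaving out 1 library gave 0 to 5. The deposited TPM also gave 4, but with the *Ass1* row, which rose (0.54), in place of *Otc*, where 54.6% of all genes rose and 4.16% fell. After median-ratio scaling leaving out 1 library gave 1 to 7 in place of 5. The 32 other pathway genes called as deposited, where 43.8% of all genes were called in either direction, became 20 with a fold change of at least 1.5 (27.4% of all), 18 with ordinary variances (21.2%) and 11 to 61 without 1 library, and the 57 called after scaling 22 to 91 without 1 library. The count of members with a genotype by tissue interaction went from 0 to 2 with median-ratio scaling within each tissue (*Asl*, and *Otc*, which passed the filter in liver alone). *Tat* turned from -0.12 to 0.00631 in the deposited TPM and to 0.25 under quantile normalization. The cause of these changes was not tested. Same-numbered Ctrl and LKO livers had correlations of their deviations from the group means of 0.154, 0.0276 and 0.0359, and other pairs -0.258 to 0.269. Deviations from a mean of 3 libraries balance each other by construction, so these values cannot decide whether the numbers pair livers. A replicate block left 4 members and 27 pathway genes called as deposited (4.72% of all genes fell), and 4 members and 49 pathway genes after scaling (14.4% fell), where *Tat* no longer passed. Over the fold changes of the 7 tested members under the alternatives, 68 of 98 deposited and 48 of 70 scaled values kept their direction and side of the threshold. With 3 libraries per group and no counts, differences near the threshold could not be resolved.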
